A study of Mus musculus with 16 samples.

Results

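The genes described here are the insulin-like growth factor (IGF) binding proteins Igfbp2, Igfbp3, Igfbp4, Igfbp5, Igfbp6 and Igfbp7 together with Tinagl1, 7 genes of the 27670 named on the array. They were chosen by name, with earlier results of these data known. Igfbp4 and Tinagl1 were taken as secreted proteins reported to depend on Sec23a for their export, and the other binding proteins as their relatives. All 11 probes carrying these names were read, and 9 of them, standing for 6 of the 7 genes, were bright enough to enter the fit. Both Igfbp3 probes were too dim.

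IGF binding proteins are secreted carriers that hold IGF1 and IGF2 outside the cell, lengthen their life in blood and tissue fluid and control how much ligand reaches the IGF1 receptor. In mammary tumours they can withhold IGF from the cells or, when a protease cuts them or the matrix holds them, release it nearby. Tinagl1 is a secreted glycoprotein of the basement membrane that binds integrins and the EGF receptor. Sec23a is an inner coat protein of the COPII vesicles that carry secretory cargo from the endoplasmic reticulum, and its transcript is a reported target of the miR-200 family. The arrays measured mRNA inside the cells, so nothing here reports on how much of each protein was secreted.

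RNA came from 4TO7 cells, a mouse mammary carcinoma line, infected with retroviral pMSCV vectors carrying hygromycin (Hygro) or puromycin (Puro) selection. There were 8 groups with 2 arrays in each. The overexpressed inserts were Cluster 1, with a Puro vector control; Cluster 2, with a Hygro vector control; Clusters 1+2, with a control carrying both empty vectors; and CDH1 (E-cadherin), with a Puro vector control of its own. The sample was hybridised against Universal Mouse Reference RNA pooled from 11 cell lines, with Cy3 in the Cluster 2 and Clusters 1+2 experiments and Cy5 in the Cluster 1 and CDH1 experiments. The 4 arrays of each comparison with its own vector therefore shared a dye, and ratios are compared only within a dye. The difference between the effects of Clusters 1+2 and Cluster 1, however, crosses dyes.

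The study's title names miR-200 as what was overexpressed, and the family is shown because its seeds set which transcripts it can pair with. Seeds, bases 2 to 8 from the 5′ end, are in capitals (RefSeq, build GRCm38.p6). The 3 miRNAs of the first seed group are followed by the 2 of the other, and the seeds differ at 1 base.
mmu-miR-200b-3p: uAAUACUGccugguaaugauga
mmu-miR-200c-3p: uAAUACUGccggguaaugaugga
mmu-miR-429-3p: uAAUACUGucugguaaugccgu
mmu-miR-200a-3p: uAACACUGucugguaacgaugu
mmu-miR-141-3p: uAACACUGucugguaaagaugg
The genes of miR-200b, miR-200a and miR-429 lie together on mouse chromosome 4 and those of miR-200c and miR-141 on chromosome 6. The labels do not say which locus Cluster 1 or Cluster 2 stands for. The letters that pair with a seed, CAGTATT or CAGTGTT, occurred in 0 of the 11 member probes, each 60 bases long, against 0.605% and 0.806% of all probes. The probes cover a small stretch of each transcript, and pairing elsewhere was not analysed here.

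Values are log2 ratios of sample over reference for the brightest kept probe of a gene, and differences between groups are given as log2 fold changes with their standard error (SE) and a Benjamini-Hochberg adjusted p over all genes from a limma model of the 16 arrays; a gene was called at an adjusted p under 0.05. Between the repeats of any group, the median gene moved by 0.0826 to 0.108 (log2). The number of probes well above background ran from 12349, in 1 repeat of the Puro vector for CDH1, to 28320. The labelled cell type was set against its markers: the keratin genes Krt8, Krt18 and Krt19 and Epcam were well above background on 15 or 16 arrays each, and of the mesenchymal markers Vim, Fn1 and Zeb1 were on 15 or 16, S100a4 on 10, and Cdh2 did not pass the filter. Some markers of other cell types were above background as often: the leukocyte genes Cd68, Cd14 and Cd3e on 15 arrays, Csf1r on 14 and Ptprc on 6; the endothelial genes Kdr on 14, Pecam1 on 9 and Cdh5 on 4, with Tie1 not kept; and the adipocyte genes Fabp4 on 15, Lep on 6 and Adipoq on 4. Detection alone therefore did not set the epithelial markers apart from those of other cell types. Of 5 epithelial markers, 4 were higher with Cluster 1, 4 with Cluster 2 and 5 with Clusters 1+2 (median log2 fold changes 1.21, 1.04 and 1.73), and 2 of 4 mesenchymal markers were lower with Clusters 1+2 (median -0.54). Of all genes tested, 8.30%, 2.88% and 25.0% were called in these comparisons, in that order. With CDH1, 1 epithelial marker was higher and 1 lower (median -0.24), and 2 of 4 mesenchymal markers were lower (median -0.77), with 14.6% of all genes called. The epithelial marker called higher was Cdh1, the overexpressed gene itself, so that call says nothing on other epithelial genes. The 2 Puro vectors themselves differed for 1 of 4 mesenchymal markers, lower in that for Cluster 1 (median -0.56), and for 0 of 5 epithelial markers (median 0.04). That comparison called 10.1% of all genes. The CDH1 value of Fn1 depended on the Puro vector used, as given below. The part of all these markers in the members' results was not tested. Cdh1 was not well above background on either array of the Puro vector for CDH1; it was higher in CDH1 cells than in that control (adjusted p = 0.00556, limma) and higher than in the other Puro vector by 0.63 (adjusted p = 0.0223).

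Igfbp4 fell with Clusters 1+2 by slightly more than a factor of 2, Igfbp6 fell less, Igfbp7 rose, and Tinagl1 fell by 1.29-fold. Of the 6 fitted members, 3 were lower and 1 was higher in Clusters 1+2 than in the double vector control, in a comparison that called 25.0% of all 18868 genes tested. The median of the 6 fold changes was -0.13 against 0 for all genes. Cluster 2 alone called 1 member, Igfbp7, higher (2.88% of all genes called), and Cluster 1 alone called 1 member, Tinagl1, lower (8.30% of all genes called). CDH1 overexpression called 2 members, Igfbp6 and Igfbp7, lower (14.6% of all genes called), and these 2 calls depended on which Puro vector served as the control.

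**Figure D1:**
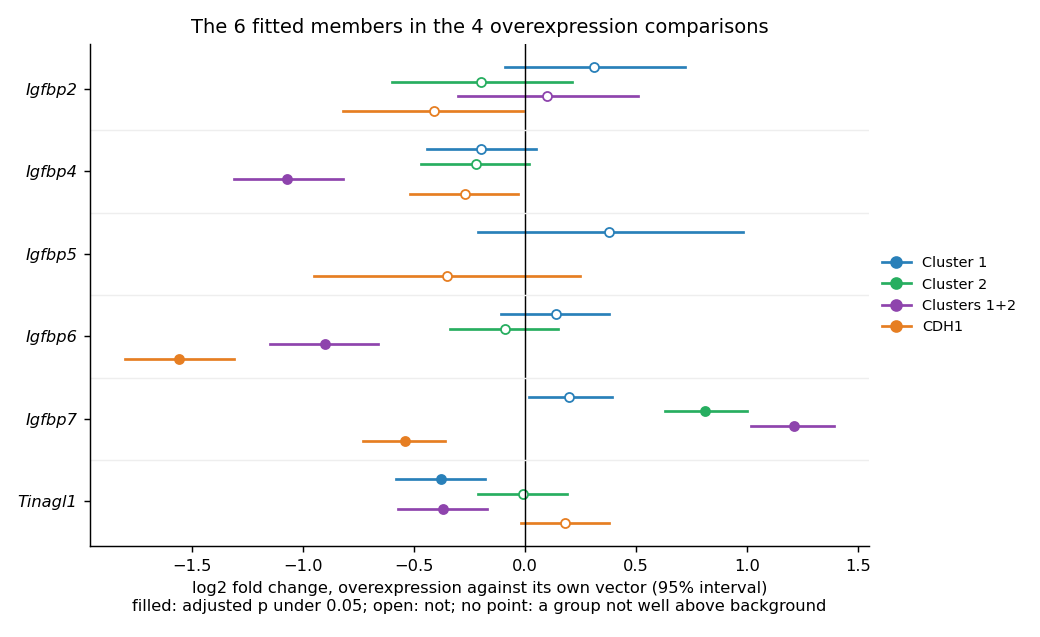
Log2 fold change of each fitted member (rows) in the 4 overexpression comparisons (colours), with 95% intervals from limma. Filled points have an adjusted p under 0.05. Igfbp4 at -1.07 and Igfbp7 at 1.21 lie on opposite sides of 0 with Clusters 1+2, and Igfbp5 has no point where a group was not well above background.

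Igfbp4, a soluble carrier that holds IGF and is cut by the pappalysin protease Pappa, lies at chromosome 11, 99040005 to 99052655 (GRCm38.p6, as for all gene positions here). It gave log2 ratios of 1.40 and 1.55 with the double vector and 0.52 and 0.29 with Clusters 1+2. The 2 pairs of arrays did not overlap, and the gap between them was several times the gap within either. The log2 fold change was -1.07 (SE 0.113, adjusted p = 1.57e-05, limma), which is 2.10-fold lower, and it was -0.88 on slide 1 and -1.25 on slide 2. With bulk RNA, fewer cells with the transcript and less transcript per cell cannot be told apart, here and below.

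The other single overexpressions left Igfbp4 short of the threshold. Its log2 ratios were 1.32 and 1.02 with the Hygro vector and 0.95 and 0.94 with Cluster 2, a difference of -0.22 (95% interval -0.47 to 0.02, adjusted p = 0.389, limma). In the Cy5 arrays they were 0.64 and 0.74 with the Puro vector for Cluster 1 and 0.60 and 0.38 with Cluster 1, a difference of -0.20 (95% interval -0.44 to 0.05, adjusted p = 0.389). With the Puro vector for CDH1 they were 0.94 and 0.80, and with CDH1 0.61 and 0.59, a difference of -0.27 (95% interval -0.52 to -0.03, adjusted p = 0.145). All 3 estimates lay below 0 and none was called. Each changed sign in an alternative. Cluster 1 gave 0.2 with the processed signals, Cluster 2 0.02 with median centring and CDH1 0.14 with marked spots kept.

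The effects themselves were compared. Igfbp4 fell more with Clusters 1+2 than with Cluster 2 by 0.84 (SE 0.16, adjusted p = 0.00666, limma), where 2 of 6 members and 6.32% of all genes differed between the effects. It fell more with Clusters 1+2 than with Cluster 1 by 0.87 (SE 0.16, adjusted p = 0.00261), where 3 of 6 members and 15.7% of all genes did. The second difference sets a Cy3 experiment against a Cy5 experiment, so dye, slide and cluster cannot be told apart in it, and 3 of 13 alternatives did not call it. The difference from Cluster 2 also takes in the controls: Igfbp4 averaged 1.47 with the double vector and 1.17 with the Hygro vector. Its averages were 0.4 with Clusters 1+2 and 0.95 with Cluster 2. The part of the controls was not tested. That difference missed the threshold in 7 of 13 alternatives, among them the second Igfbp4 probe at -0.53 (adjusted p = 0.0754, limma).

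That second, dimmer Igfbp4 probe read another position in the gene and gave the same direction. It read 1.21 and 1.13 with the double vector and 0.38 and 0.36 with Clusters 1+2, a fall of 0.80 (SE 0.111, adjusted p = 0.000156, limma). In the other 3 comparisons it gave -0.01 with Cluster 1, -0.27 with Cluster 2 and -0.12 with CDH1, none of them called. The brighter probe lies at chromosome 11, 99161059 to 99161118, and the dimmer at 99157316 to 99157375, in build mm7, on the plus strand; whether these stretches are coding or untranslated was not analysed here.

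Tinagl1 (chromosome 4, 130165600 to 130175122) lay above the reference on every array. With the double vector its brighter probe gave 2.38 and 2.42 and with Clusters 1+2 2.17 and 1.89, so the pairs did not overlap. The fall was 0.37 (SE 0.0915, adjusted p = 0.00951, limma), 1.29-fold, and it was 0.21 on slide 1 and 0.53 on slide 2 in size. From the sample channel alone the fall was 1.02 in size, and it was called there too. It lost its call in 4 of 13 alternatives and without either the double vector's repeat B (-0.35, adjusted p = 0.0573) or the repeat B of Clusters 1+2 (-0.23, adjusted p = 0.121).

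With Cluster 1 Tinagl1 gave 2.10 and 2.06, against 2.35 and 2.57 with its Puro vector. The fall was 0.38 (SE 0.0915, adjusted p = 0.0219, limma), but 9 of 13 alternatives did not call it, and 3 of the 4 fits that left out 1 array did not either: without Cluster 1 repeat A (adjusted p = 0.0971), without Cluster 1 repeat B (0.112) and without the Puro vector's repeat B (0.197). Against the Puro vector for CDH1, which gave 2.18 and 2.17, the difference was -0.10 (adjusted p = 0.67). In that substituted comparison 1 member was called, in a background of 8.72% of all genes.

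Cluster 2 and CDH1 gave no call for Tinagl1 in the model of all arrays. The log2 ratios were 2.29 and 2.25 with the Hygro vector and 2.24 and 2.28 with Cluster 2, a difference of -0.01 (95% interval -0.21 to 0.19), and these pairs overlapped. CDH1 gave 2.35 and 2.36, a difference of 0.18 from its own control (95% interval -0.02 to 0.38, adjusted p = 0.241); it was called higher with median centring (0.43, adjusted p = 0.023), and its sign turned with the processed signals (-0.03) and with the spread of arrays scaled (-0.04). The difference between the effects of Clusters 1+2 and Cluster 2 on Tinagl1 was -0.36 (95% interval -0.64 to -0.08, adjusted p = 0.137), which did not pass; without repeat A of Clusters 1+2 it was -0.50 (adjusted p = 0.0396), and with median centring -0.68 (adjusted p = 0.0205).

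The second Tinagl1 probe spread more between repeats and was called in none of the 4 comparisons. Its estimates were -0.47 with Cluster 1 (adjusted p = 0.151), -0.14 with Cluster 2 (0.799), -0.50 with Clusters 1+2 (0.0525) and 0.48 with CDH1 (0.0971). In Clusters 1+2 its repeats were 2.64 and 1.97, the first of which was close to the 2.82 and 2.79 of the double vector. Both Tinagl1 probes thus gave estimates of the same sign in each of the 4 comparisons, and the values of the brighter probe crossed the threshold in 2 of them. With Cluster 2, however, the brighter probe lay at -0.01, and with median centring it gave 0.29 there.

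**Figure D2:**
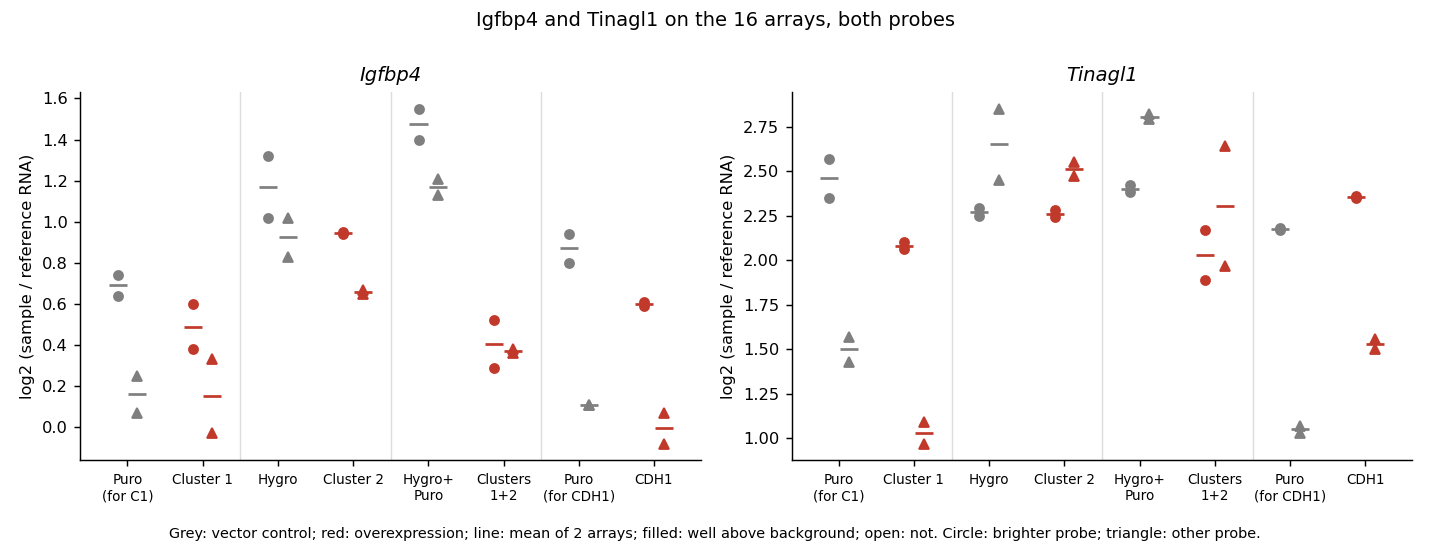
Log2 ratio of sample over reference (vertical axes) for both probes of Igfbp4 (left) and Tinagl1 (right) in the 8 groups, with 1 point per array and a line at the mean of 2 arrays; grey is vector control and red overexpression. The brighter Igfbp4 probe lies at 0.52 and 0.29 with Clusters 1+2 against 1.40 and 1.55 in its control, while the brighter Tinagl1 probe (circles) lies between 1.89 and 2.57 on all arrays.

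Sec23a, the coat protein through which Igfbp4 and Tinagl1 were reported to be secreted, fell in the same comparison as Igfbp4. It read -0.12 and 0.07 with the double vector and -1.33 and -1.14 with Clusters 1+2, a fall of 1.20 (SE 0.145, adjusted p = 4.77e-05, limma). The dimmer Sec23a probe fell by 0.76 (adjusted p = 0.000494). With Cluster 2 the brighter probe gave -0.51 (adjusted p = 0.0935), with Cluster 1 -0.03 and with CDH1 -0.01, none called. Sec23b, its paralogue in the same coat, was higher by 0.27 in Clusters 1+2 (adjusted p = 0.0346), a call kept in 4 of 12 alternatives and in 0 of the 4 fits that left out 1 array.

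Igfbp6, a carrier that prefers IGF2 over IGF1 (chromosome 15, 102144186 to 102149512), fell with Clusters 1+2 as well. Its log2 ratios were -1.53 and -1.26 with the double vector and -2.37 and -2.23 with Clusters 1+2, with no overlap between the pairs. The fall was 0.90 (SE 0.114, adjusted p = 6.86e-05, limma), 1.87-fold, at -0.83 on slide 1 and -0.97 on slide 2. It kept its call in 11 of 12 alternatives and lost it only where the spread of every array was scaled to be equal (-0.63, adjusted p = 0.0564).

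Single overexpression of either cluster did not give a call for Igfbp6. The log2 ratios were -1.84 and -1.70 with the Hygro vector and -1.92 and -1.82 with Cluster 2, a difference of -0.09 (95% interval -0.34 to 0.15). With Cluster 1 they were -0.94 and -0.88 and with its Puro vector -0.96 and -1.13, a difference of 0.14 (95% interval -0.11 to 0.38). The effect of Clusters 1+2 on Igfbp6 was lower than that of Cluster 2 by 0.81 (SE 0.161, adjusted p = 0.00908, limma) and lower than that of Cluster 1 by 1.04 (SE 0.161, adjusted p = 0.000834). As for Igfbp4, the effect of both clusters was lower than that of either alone, the second of these differences across dyes. They were not called in 3 and 1 of 12 alternatives. The difference from Cluster 2 also takes in the controls: Igfbp6 averaged -1.4 with the double vector and -1.77 with the Hygro vector. Its averages were -2.3 with Clusters 1+2 and -1.87 with Cluster 2. The part of the controls was not tested.

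With CDH1, Igfbp6 gave -1.22 and -1.46 against 0.30 and 0.13 in the Puro vector made for it. The fall of 1.56 (SE 0.114, adjusted p = 3.1e-06, limma) was the largest of any member in any of the 4 comparisons. The other Puro vector line, however, gave -0.96 and -1.13, so the 2 vector controls differed from each other by 1.26 (adjusted p = 2.08e-05), 2.40-fold. That comparison of the controls called 2 of 6 members, Igfbp6 and Igfbp7, both lower in the Puro vector for Cluster 1, and 10.1% of all genes.

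Against the Puro vector for Cluster 1, on another slide, CDH1 left 0 of 6 members called, with 2.50% of all genes called, and Igfbp6 at -0.30 (SE 0.114, adjusted p = 0.234, limma). Cluster 1 set against the Puro vector for CDH1 gave Igfbp6 at -1.12 (adjusted p = 5.58e-05), the opposite sign from its value against its own vector. The group in which Igfbp6 stood apart among the 4 Cy5 groups was thus the Puro vector for CDH1; control line and slide cannot be told apart.

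Igfbp7, a matrix-associated relative that binds IGF only weakly and also binds insulin and collagen (chromosome 5, 77349240 to 77408045), was the 1 member that rose with the clusters. Its log2 ratios were -2.43 and -2.34 with the Hygro vector and -1.63 and -1.51 with Cluster 2. The rise was 0.81 (SE 0.085, adjusted p = 0.000127, limma), 1.76-fold, at 0.81 on slide 1 and 0.82 on slide 2. Its call was lost in 3 of 12 alternatives: with the spread of arrays scaled (0.68, adjusted p = 0.368), from the sample channel alone (0.72, adjusted p = 0.0525) and from these 4 arrays alone (adjusted p = 0.0678).

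With Clusters 1+2 the rise in Igfbp7 was larger. The log2 ratios were -2.49 and -2.30 with the double vector and -1.23 and -1.14 with Clusters 1+2, a rise of 1.21 (SE 0.085, adjusted p = 4.24e-07, limma), 2.31-fold, called in all 12 alternatives and in all 4 fits leaving out 1 array. It exceeded the rise with Cluster 2 by 0.39 (SE 0.12, adjusted p = 0.0777), which did not pass; the fit with the slide as a block gave the same size with an adjusted p of 0.0335, and without the double vector's repeat B it was 0.49 (adjusted p = 0.0462). It exceeded the value with Cluster 1 by 1.01 (SE 0.12, adjusted p = 0.000128), again across dyes and not called in 2 of 12 alternatives.

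Cluster 1 alone gave Igfbp7 at -1.46 on both arrays against -1.65 and -1.67 in its vector, a difference of 0.20 (95% interval 0.02 to 0.39, adjusted p = 0.207, limma) that was not called. It was called with median centring (0.38, adjusted p = 0.0239) and from the sample channel alone (0.76, adjusted p = 0.0063), and was -0.24 against the Puro vector for CDH1 (adjusted p = 0.117). CDH1 gave -1.73 and -1.80 against -1.31 and -1.13, a fall of 0.54 (SE 0.085, adjusted p = 0.000884). Here too the vector lines differed, by 0.44 (adjusted p = 0.00532; 0.35 in size and 0.0609 without repeat B of the Puro vector for CDH1), and against the Puro vector for Cluster 1 the CDH1 value was -0.11 (adjusted p = 0.671). The CDH1 calls for Igfbp6 and Igfbp7 therefore held against 1 of the 2 Puro lines.

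**Figure D3:**
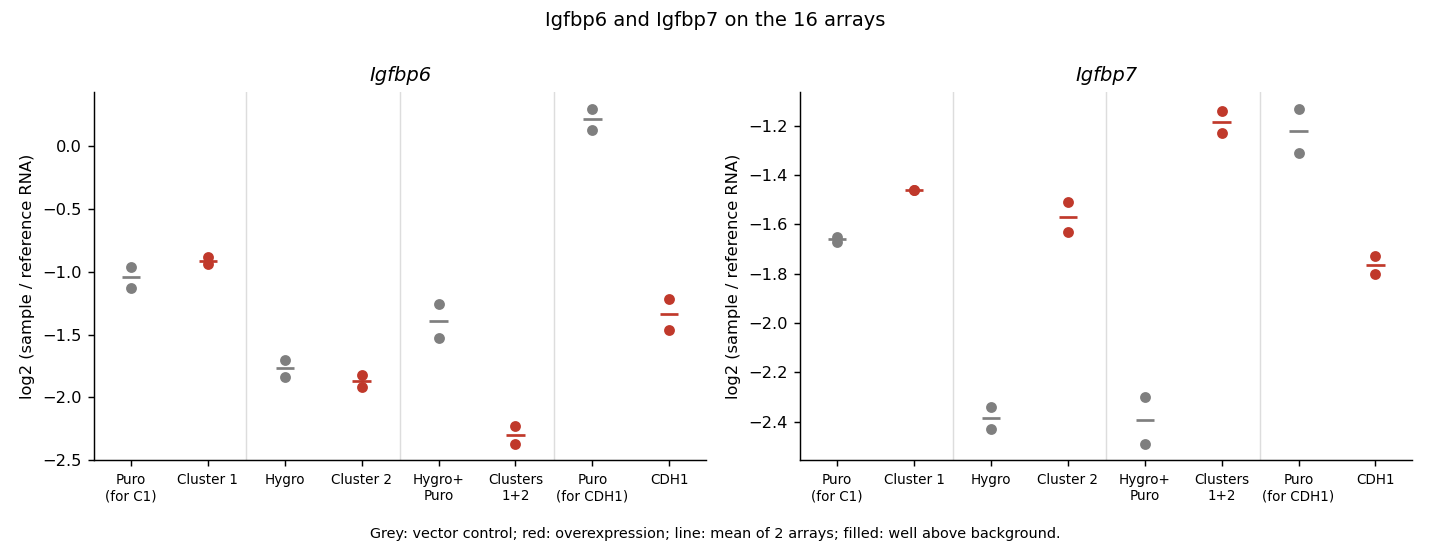
Log2 ratio of sample over reference (vertical axes) for Igfbp6 (left) and Igfbp7 (right) in the 8 groups, with 1 point per array and a line at the mean of 2 arrays; grey is vector control and red overexpression. The Puro vector for CDH1 stands high for Igfbp6, at 0.30 and 0.13, while the other Puro vector is at -0.96 and -1.13.

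Igfbp2 and Igfbp5, neighbouring genes on chromosome 1 (72824480 to 72852474 and 72858065 to 72874865), were called in none of the 7 comparisons against matched groups. Igfbp2, a carrier that binds cells through an integrin-recognition motif, was below the reference everywhere, from -3.19 to -1.98. Its differences were 0.31 with Cluster 1 (adjusted p = 0.414, limma), -0.20 with Cluster 2 (0.706), 0.10 with Clusters 1+2 (0.769) and -0.41 with CDH1 (0.179). The interval of the last ran from -0.82 to -0.01.

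Igfbp5, which binds matrix and is known for its rise during mammary involution, was well above background on 8 of 16 arrays with its brighter probe: all 4 of the Cluster 1 experiment, 3 of the CDH1 experiment and 1 of the Hygro vector. The Cluster 2, double vector and Clusters 1+2 groups were not well above background, so no fold is given for them; without repeat A of the Hygro vector, Cluster 2 was called lower than the remaining repeat (adjusted p = 0.0182). In the Cy5 arrays it gave -1.33 and -1.22 with the Puro vector for Cluster 1, -0.91 and -0.88 with Cluster 1, -1.0 and -1.02 with the Puro vector for CDH1 and -1.31 and -1.41 with CDH1. The differences were 0.38 (95% interval -0.21 to 0.98) with Cluster 1 and -0.35 (95% interval -0.95 to 0.25) with CDH1, while the dimmer probe gave -0.04 and 0.06, so the probes did not share a direction. Fitted on the 4 arrays of their own comparison, Igfbp2 and Igfbp5 were called higher with Cluster 1 (adjusted p = 0.0278 and 0.0103) and lower with CDH1 (0.0338 and 0.0323).

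**Figure D4:**
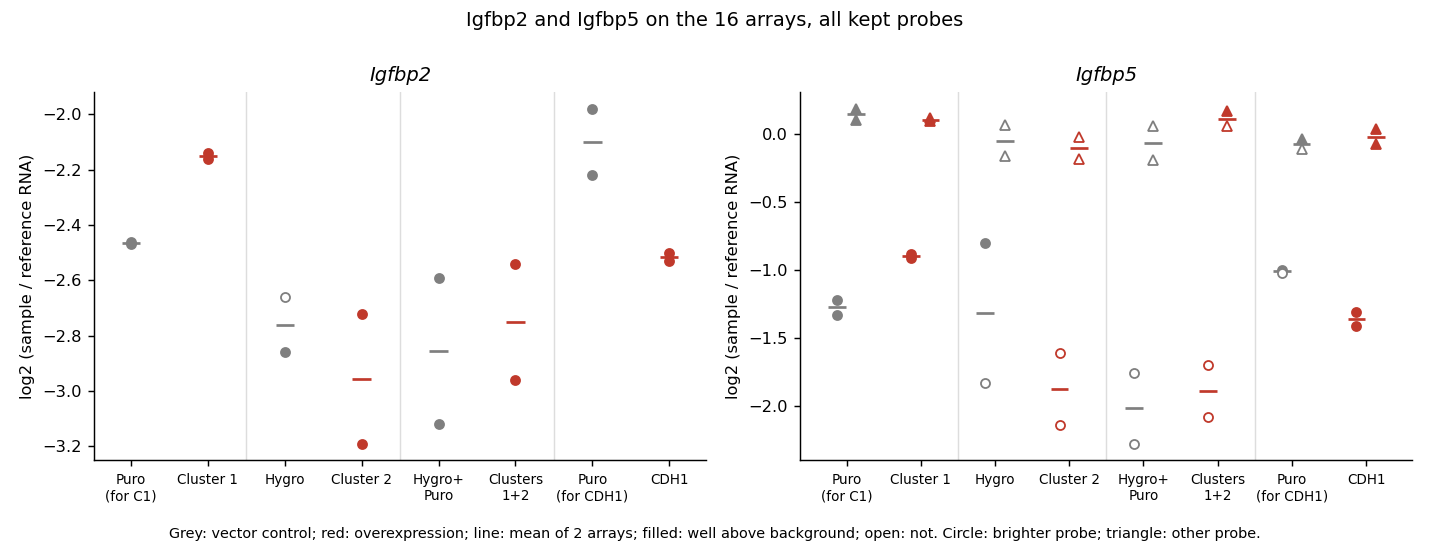
Log2 ratio of sample over reference (vertical axes) for Igfbp2 (left) and for both kept probes of Igfbp5 (right) in the 8 groups, with 1 point per array and a line at the mean of 2 arrays. Open points were not well above background, as for the brighter Igfbp5 probe in all Clusters 1+2 and double vector arrays; Igfbp2 stays between -3.19 and -1.98.

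Igfbp3, the main carrier of IGF in blood, (chromosome 11, 7206086 to 7215498) was not fitted. Its brighter probe was well above background on 4 of 16 arrays, repeat A of each Cy3 group, and its dimmer probe on 0, so no level or difference is given.

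The rest of the IGF axis was read from a list of 23 genes: ligands, receptors, adaptors, further carriers, proteases that cut the binding proteins and inhibitors of those proteases. Of these, 18 were tested. With Cluster 1, 3 were higher and 0 lower (8.30% of all genes called, as above). With Cluster 2, 2 were higher and 1 lower (2.88% of all genes), and with Clusters 1+2, 2 were higher and 4 lower (25.0%). With CDH1, 0 were higher and 4 lower (14.6%). The list's median fold change was 0.03, -0.14, 0.02 and -0.25 in that order, against 0 to 0.01 for all genes. Irs2 had no probe, and Igfbp1, Igfbpl1, Adam12 and Stc1 did not pass the filter.

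Among ligands and receptors, Igf2r, which clears IGF2 by taking it to lysosomes, fell with Clusters 1+2 and CDH1. It read 1.02 and 0.98 with the double vector and 0.39 and 0.36 with Clusters 1+2, a fall of 0.63 (SE 0.0725, adjusted p = 3.41e-05, limma). With CDH1 it fell by 0.55 (adjusted p = 0.000287), and against the other Puro vector by 0.77. Its fall of 0.37 with Cluster 2 (adjusted p = 0.0142) was not called in 5 of 12 alternatives and, without either Hygro vector repeat or without Cluster 2 repeat B, had an adjusted p of 0.0551, 0.0809 and 0.107.

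The signalling receptors moved little. Igf1r was higher by 0.30 with Cluster 1 (adjusted p = 0.0256, limma), which 0 of the 4 fits without 1 array called, and its 3 other kept probes gave 0.19, -0.10 and -0.02. Insr, the insulin receptor, was lower by 0.36 with Clusters 1+2 (adjusted p = 0.0394), called in 4 of 11 alternatives and not without the double vector's repeat B (0.221) or repeat A of Clusters 1+2 (0.245). Igf2, the ligand, was lower by 0.59 with CDH1 (adjusted p = 0.0012), and by 1.10 against the other Puro vector (adjusted p = 0.000104); its dimmer probe gave -0.41 (adjusted p = 0.131).

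Irs1, the adaptor that passes the IGF1 receptor signal to PI3-kinase, rose with the clusters. Its log2 ratios were -1.68 and -1.75 with the double vector and -0.66 and -0.55 with Clusters 1+2, a rise of 1.11 (SE 0.107, adjusted p = 7.49e-06, limma), 2.15-fold. It rose by 0.61 with Cluster 1 (adjusted p = 0.00349), where -0.27 and -0.32 stood against -0.73 and -1.08, and by 0.44 with Cluster 2 (adjusted p = 0.0492), the last kept in 3 of 12 alternatives and in 0 of the 4 fits without 1 array. The other Irs1 probe, dimmer and not well above background with Cluster 1 or its control, gave 0.25 with Clusters 1+2 (adjusted p = 0.217). The fall of 0.37 with CDH1 (adjusted p = 0.0341) was also kept in 3 of 12, and in 1 of the 4 fits without 1 array, that without repeat B of the Puro vector for CDH1.

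Shc1, an adaptor towards Ras signalling, fell by 0.75 with Clusters 1+2 (SE 0.116, adjusted p = 0.000349, limma), from 0.41 and 0.66 to -0.23 and -0.22. In the other 3 vector comparisons it was not called.

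Htra1, a secreted serine protease that cuts IGF binding proteins and matrix, had 1 probe, above background on all 16 arrays, and was called in all 4 comparisons. Htra1 read 0.73 and 0.63 with the double vector and 1.77 and 1.89 with Clusters 1+2, a rise of 1.14 (SE 0.077, adjusted p = 2.96e-07, limma), 2.21-fold. With Cluster 2 they were 1.12 and 1.23 against 0.51 and 0.53, a rise of 0.65 (adjusted p = 0.000367), not called in 3 of 12 alternatives (adjusted p = 0.0829 with the spread of arrays scaled, 0.0641 with marked spots kept and 0.0853 from these 4 arrays alone). With Cluster 1 they were 0.87 and 0.95 against 0.16 and 0.08, a rise of 0.79 (adjusted p = 5.23e-05), which from the sample channel alone was 0.45 (adjusted p = 0.0637).

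The Puro vectors differed for Htra1 as they did for Igfbp6. The Puro vector for CDH1 gave 1.33 and 1.20, higher than that for Cluster 1 by a log2 difference of 1.15 in size (adjusted p = 1.92e-06, limma). CDH1, at 0.65 and 0.59, was therefore lower than its own control by 0.65 (adjusted p = 0.000127; 0.03 in size from the sample channel alone) and higher than the other by 0.50 (adjusted p = 0.00595). Cluster 1 likewise changed sign, to -0.35, against the Puro vector for CDH1. Cathepsin D (Ctsd), a lysosomal protease that can cut the carriers, fell by 0.55 with Clusters 1+2 (adjusted p = 0.00433); its other probe gave -0.29 (adjusted p = 0.0707), and without the double vector's repeat B the fall was 0.42 (adjusted p = 0.0546).

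**Figure D5:**
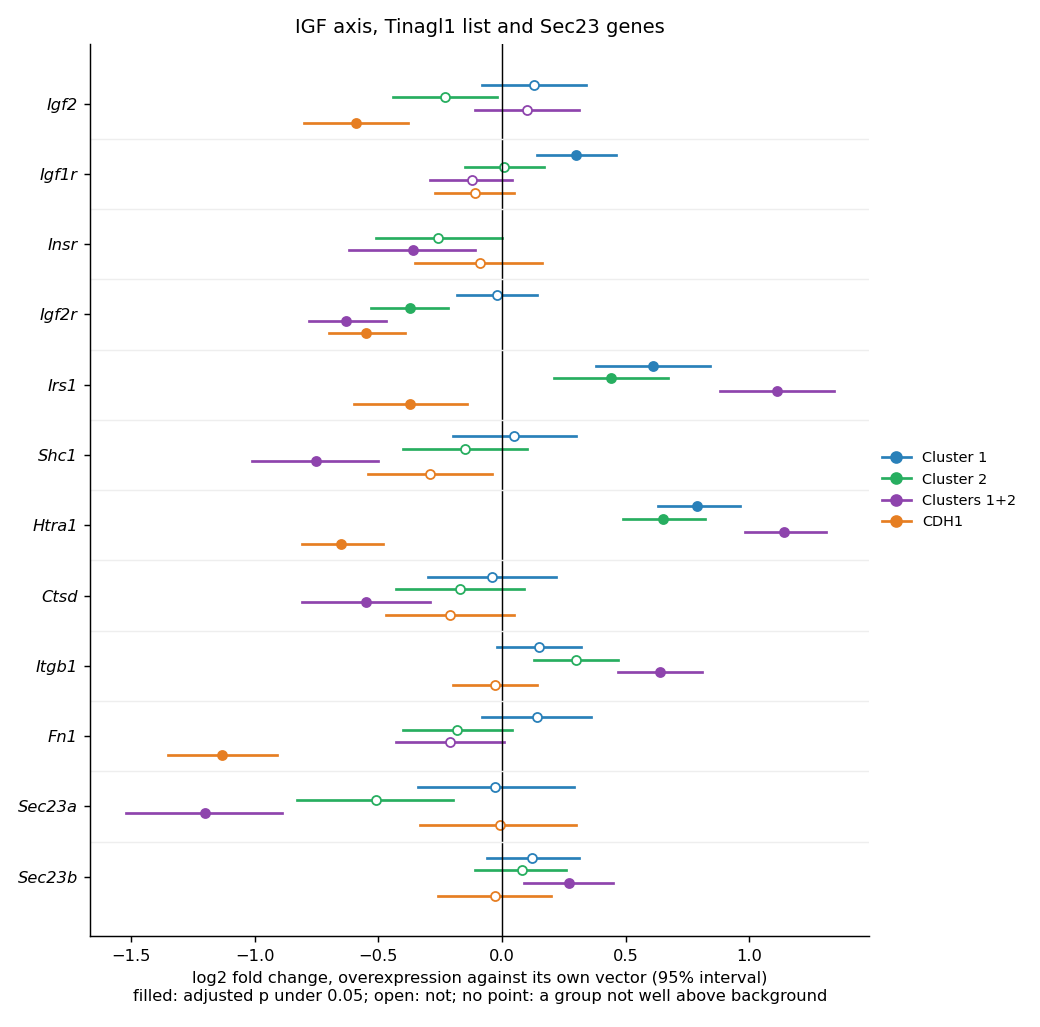
Log2 fold change (horizontal axis, 95% intervals from limma) of the listed IGF axis and Tinagl1 genes that were called in at least 1 comparison, with Sec23a and Sec23b; colours are the 4 comparisons and filled points have an adjusted p under 0.05. Irs1 at 1.11 and Htra1 at 1.14 lie highest with Clusters 1+2, and Sec23a at -1.20 lies lowest.

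The Tinagl1 list held its paralogue Tinag, the integrin subunits Itga5, Itgav and Itgb1, the EGF receptor, Ptk2 and Fn1, 7 genes of which 6 were tested. With Clusters 1+2, 1 was higher and 0 lower (25.0% of all genes called), and with CDH1, 0 were higher and 1 lower (14.6%). With Cluster 1 (8.30%) and with Cluster 2 (2.88%) 0 were called. Itgb1, the integrin beta subunit, rose by 0.64 with Clusters 1+2 (SE 0.0789, adjusted p = 5.82e-05, limma), from -0.79 and -0.72 to -0.12 and -0.12; its next probe rose by 0.51 and its dimmest gave -0.18 (adjusted p = 0.209). Fn1, fibronectin, fell by 1.13 with CDH1 (adjusted p = 1.32e-05) but was at -0.22 against the other Puro vector (adjusted p = 0.346).

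The genes whose values followed each called member most closely were found by Pearson correlation over the 16 arrays. Each comparison's 4 arrays were centred on their own mean. The candidates were 6854 genes, members excluded, with a symbol, no missing value and a sample channel well above background on all 16 arrays. The correlations are descriptions without a test, and the arrays share samples and slides. The closest genes were picked from these same values, so the fold changes given for them, here and below, follow largely from that choice. For Igfbp4 the closest genes were Ier5l, Slc29a1, Mindy1 and Josd2 (r = 0.96) and Dap (0.95), all 5 lower with Clusters 1+2 by 0.66 to 1.27. For Tinagl1 they were Atp2c2 (0.95), Nfix (0.93), Zcchc14, Nuf2 and Bnip2 (0.90).

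For Igfbp6 the closest genes were Serpinh1, which encodes a collagen chaperone (0.99), Vegfa, the angiogenic growth factor (0.98), Pbx2 and Emilin2 (0.98) and Septin5 (0.97). Like Igfbp6, Serpinh1 was lower with Clusters 1+2 (-0.75) and with CDH1 against its own control (-1.34). For Igfbp7 they were Tagln2 (0.97), Rab32 and Fbln2 (0.96), Angptl4 and Furin (0.95), and Rab32 rose by 1.78 and Fbln2, a matrix fibulin, by 1.34 with Clusters 1+2. Between the members themselves, Igfbp4 correlated at 0.65 with Tinagl1, 0.62 with Igfbp6, -0.73 with Igfbp7, -0.07 with Igfbp2 and -0.10 with Igfbp5. Tinagl1 gave -0.03 with Igfbp6 and -0.66 with Igfbp7. The highest value among the fitted members was 0.81, for Igfbp2 with Igfbp5, the latter well above background on 8 of 16 arrays.

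The 250 bases before a RefSeq start of Igfbp4 and of Igfbp7 are shown because these members moved furthest in opposite directions with Clusters 1+2. The start used for Igfbp4 lies within its gene span, which begins at 99040005, so the Igfbp4 stretch is inside that span. The Igfbp7 stretch lies just outside its gene span, which ends at 77408045. The Igfbp4 stretch is chr11:99040994-99041243, plus strand, and the Igfbp7 stretch chr5:77408046-77408295, minus strand, both in GRCm38.p6 and printed 5′ to 3′ with the letters TATAAA in capitals where they occur.
Igfbp4: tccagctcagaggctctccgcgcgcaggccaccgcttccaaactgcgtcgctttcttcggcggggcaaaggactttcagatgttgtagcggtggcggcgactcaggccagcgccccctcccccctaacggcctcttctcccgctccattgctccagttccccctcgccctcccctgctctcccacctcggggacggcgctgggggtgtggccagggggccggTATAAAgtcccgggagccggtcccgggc
Igfbp7: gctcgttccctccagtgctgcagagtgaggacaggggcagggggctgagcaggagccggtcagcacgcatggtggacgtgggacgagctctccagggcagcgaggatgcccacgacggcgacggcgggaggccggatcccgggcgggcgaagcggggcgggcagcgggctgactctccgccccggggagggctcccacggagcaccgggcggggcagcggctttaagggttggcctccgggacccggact
All 7 members matched RefSeq, with 9 windows of 300 bases (250 before and 50 after a start). The E-box CAGGTG, to which repressors of the Zeb and Snail families bind, was searched on both strands. It occurred in 2 of the 9 windows, 1 of the 2 of Igfbp2 and that of Igfbp3, against 20.2% of all 32851 windows; Igfbp2 was not called and Igfbp3 was not fitted. TATAAA, searched the same way, occurred in 2 windows, Igfbp4 at -28 and Igfbp6 at -148 from the start that defines the window, against 13.6% of all. A match is a description of the letters and not of binding.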

How the data were processed

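Per the file headers, the authors deposited scanner files from Agilent Feature Extraction 9.5.3.1 (array design 014868, probe positions in mm7) holding the red and green intensity of every spot and a log10 ratio of red over green. The deposited series matrix holds a linear ratio; it matched processed sample over reference signal, with a largest log10 difference of 8.06e-08. Spots marked by the software were left out (335 to 1675 per array), background was corrected with normexp (offset 50) and arrays were normalised by loess (limma 3.58.1, R 4.3.3). Kept were 26940 probes whose sample channel was well above background on each array of some group; the brightest stood for its gene (18900 genes, 2715 of them with a missing value). One limma model of 8 group means was fitted over 16 arrays, with two-sided moderated tests. It was also run on simulated data with independent errors, which cannot show the effect of the shared slide deviations given below. Gene names came from RefSeq, by accession where possible and otherwise by symbol or synonym. By slide identifiers, the Cy3 groups had repeat A on slide 1 and repeat B on slide 2; slide 3 held the CDH1 and slide 4 the Cluster 1 experiment; a slide is the only batch used. The series design calls repeats biological replicates, and p-values measure the spread between them; the labels do not say whether infections were separate. The number of arrays limits the precision. Deviations of repeat A from repeat B correlated at 0.24 to 0.42 between all 6 pairs of Cy3 groups, which share slides, and at -0.19 to 0.07 between the other 22 pairs. Named besides the members were genes of the IGF axis and Tinagl1 lists called in at least 1 vector comparison, Sec23a and Sec23b, and the 5 genes most correlated with each called member. Members and lists were chosen with earlier results of these data known. Alternatives were other signals, normalisations, filters, probes, blocks, controls and leaving out arrays. Promoter and miRNA sequences and gene positions came from RefSeq tables of GRCm38.p6; protein sequences were not used here.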

Additional observations from a re-analysis of the deposited data

Results flagged for a closer look

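In 5 cases the effect of overexpressing both clusters on a member differed from the effect of a single cluster, by a contrast of the effects in limma. Compared with Cluster 2, the log2 fold change with Clusters 1+2 was lower for Igfbp4 (-0.84, adjusted p = 0.00666) and for Igfbp6 (-0.81, adjusted p = 0.00908). Compared with Cluster 1, it was lower for Igfbp4 (-0.87, adjusted p = 0.00261) and for Igfbp6 (-1.04, adjusted p = 0.000834) and higher for Igfbp7 (1.01, adjusted p = 0.000128). In the order given, the 5 differences were not called in 7 of 13, 3 of 12, 3 of 13, 1 of 12 and 2 of 12 alternatives. The contrasts with Cluster 1 also set Cy3 arrays against Cy5 arrays. Each of the 5 differences takes in how far the vector controls lay apart, and the part of the controls was not tested. With 2 arrays a group, no array was tested for standing apart from its group.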

How the results depend on the processing

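Igfbp4 with Clusters 1+2 was called in all 13 alternatives (-1.31 to -0.80) and all 4 fits without 1 array (-1.18 to -0.96), and Igfbp7 in all 12 (1.02 to 1.28). Other members ranged more widely: Tinagl1 from -1.02 to -0.34 with Clusters 1+2 and from -0.48 to -0.10 with Cluster 1, and Igfbp6 from -1.90 to -0.30 with CDH1. The values below are members called out of 6 and genes called out of all tested, where they moved by more than 1.5 times. With the scanner's processed signals, 0 members were called for Cluster 1 and 1 for Clusters 1+2 minus Cluster 2, with 190 genes for Cluster 2, 2698 for Clusters 1+2, 353 for Clusters 1+2 minus Cluster 2 and 1554 for Clusters 1+2 minus Cluster 1. Centring each array on its median in place of loess gave 2292 genes for Cluster 2 (2149 higher and 143 lower, against 340 and 203), 2381 for Clusters 1+2 minus Cluster 2 (308 and 2073, against 555 and 636) and 1971 for Clusters 1+2 minus Cluster 1 (673 and 1298, against 1377 and 1592); it moved the median of all genes to 0.14 for Cluster 2, 0.11 for CDH1 and -0.17 for Clusters 1+2 minus Cluster 2. Scaling the spread of arrays left 0 members for Cluster 1, Cluster 2 and both differences from Clusters 1+2, 2 for Clusters 1+2, 1 for CDH1 and 1 between the Puro vectors, with 73, 1877, 122 and 1111 genes for Cluster 2, Clusters 1+2 and its differences from Cluster 2 and Cluster 1. An offset of 10 gave 0 members for Cluster 1 and 1 for Clusters 1+2 minus Cluster 2, with 263 genes for Cluster 2 and 581 for that difference. Keeping marked spots gave 0 members for Cluster 1, 0 for Clusters 1+2 minus Cluster 2 and 1 between the Puro vectors, with 191 genes for Cluster 1, 78 for Cluster 2, 2642 for Clusters 1+2, 1248 for CDH1, 271 and 995 for the differences from Cluster 2 and Cluster 1, and 527 between the Puro vectors. Averaging the probes of a gene left 0 members for Cluster 1. The sample channel alone gave 0 members for Cluster 2 and for Clusters 1+2 minus Cluster 2, with 137 genes for Cluster 2, 1915 for Clusters 1+2, 278 and 1438 for its differences from Cluster 2 and Cluster 1, and 3144 between the Puro vectors. Fitting only the arrays of the comparison gave 3 members for Cluster 1, 0 for Cluster 2, 4 for CDH1 and 1 for Clusters 1+2 minus Cluster 2, with 60 genes for Cluster 2 and 712 for that difference. The gene counts for Cluster 1 and CDH1 in that setting stayed within 1.5 times those of the main fit. The slide as a block gave 2 members for Cluster 2 (768 of 18851 genes called) and 4 for Clusters 1+2 minus Cluster 2 (1440 of 18834). Both counts took in Igfbp5, which was not well above background in the Cluster 2 group. The replicate block, which pairs the Cy3 groups by slide, changed no member's call and gave Igfbp7 in Clusters 1+2 minus Cluster 2 at 0.39 (adjusted p = 0.0569). Exchanging the Puro vectors left 0 members for CDH1 and turned Igfbp6 with Cluster 1 to -1.12, Htra1 with Cluster 1 to -0.35 and Htra1 with CDH1 to 0.50. Leaving out 1 array at a time gave 0 to 1 members and 679 to 988 genes for Cluster 1, 1 to 2 and 239 to 801 for Cluster 2, 3 to 4 and 3309 to 4167 for Clusters 1+2, and 2 and 1543 to 2069 for CDH1. It gave 2 to 3 and 819 to 1240 for Clusters 1+2 minus Cluster 2, 3 and 2086 to 2988 for Clusters 1+2 minus Cluster 1, and 1 to 3 and 1094 to 1444 between the Puro vectors. Apart from the construction of each alternative, the cause was not tested. Signal over background limited Igfbp3, Igfbp5 and the dimmer probes.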
